A study of Mus musculus with 5 samples.

Results

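Small nucleolar RNAs and small Cajal body RNAs were taken as the genes whose only annotated symbol begins with Snora, Snord or Scarna followed by a digit. The array held 78 such genes among 22180 genes with a symbol of their own, of which 26 were Snora, 47 Snord and 5 Scarna. Their transcripts were measured in 2 heart samples of Akita mice (replicates 1 and 3) and 3 of wild type mice (replicates 3, 4 and 5), all males of the C57BL/6 background aged 12 weeks. Akita mice carry a mutation in the insulin gene Ins2, written Ins2+/- by the submitters, and serve as a model of type 1 diabetes. Total RNA was labelled by a whole-transcript kit and hybridised to 1 array per sample, and all values are log2 signals as deposited. The labels number the samples but name no animals, so errors and p-values reflect only how far these samples differ from each other, which may be technical.

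Box H/ACA RNAs, the Snora class, guide the conversion of uridine to pseudouridine in ribosomal RNA together with dyskerin. Box C/D RNAs, the Snord class, guide the methylation of ribose with fibrillarin, and the Scarna class guides the same changes in spliceosomal RNAs within Cajal bodies. Most mammalian members are cut out of introns of host genes, many of which encode ribosomal proteins or are spliced transcripts without a protein product. A probe set over such an RNA also reads any host precursor that still holds its sequence, and in whole heart fewer cells of a type cannot be told apart from less RNA per cell.

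The clearest difference lay in small RNAs of a single host gene, Snhg12, a non-coding transcript. Snora44 and Snora61, both box H/ACA RNAs held by Snhg12, rose in Akita hearts, while Snora16a and Snord99, held by the same gene, did not pass the test. The RefSeq table places Snhg12 on chromosome 4 beside another such host, Snhg3, which holds Snora73a and Snora73b. These start regions, 250 bases before and 50 after the annotated first base, are shown because the 4 members highest in Akita relative to wild type hearts came from these 2 loci. They are credited to RefSeq, build GRCm38.p6, and the capitals mark the letters TATAA.
Snhg12, chr4:132308428-132308727, plus strand: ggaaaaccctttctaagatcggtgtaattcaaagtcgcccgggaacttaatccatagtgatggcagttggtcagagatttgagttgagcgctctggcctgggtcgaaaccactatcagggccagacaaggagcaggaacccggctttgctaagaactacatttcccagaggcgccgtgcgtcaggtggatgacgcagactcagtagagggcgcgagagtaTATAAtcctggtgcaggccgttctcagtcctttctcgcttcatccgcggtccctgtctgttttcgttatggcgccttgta
Snhg3, chr4:132353637-132353936, minus strand: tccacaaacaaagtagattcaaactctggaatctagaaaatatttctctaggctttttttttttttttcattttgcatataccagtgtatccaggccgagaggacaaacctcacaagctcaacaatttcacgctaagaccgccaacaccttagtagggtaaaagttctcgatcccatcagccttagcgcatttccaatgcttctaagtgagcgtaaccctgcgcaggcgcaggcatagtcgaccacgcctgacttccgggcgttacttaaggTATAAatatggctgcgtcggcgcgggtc
TATAA, or TTATA on the other strand, occurred once in each window, starting at base -30 in Snhg12 and at base 23 in Snhg3, counted from the start site. The same letters were found in 24.9% of the 32851 windows in the RefSeq set. CCAAT was found at base -57 of Snhg3 and not in the Snhg12 window (37.4% of all windows hold it on either strand), and CACGTG was found in neither (7.15% of all windows).

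Snora44 had log2 signals of 9.53 and 9.31 in Akita hearts, against 7.97, 8.34 and 8.35 in wild type hearts. Both Akita arrays lay above all wild type arrays by nearly a full log2 unit. The log2 difference was 1.20 (SE 0.15, 2.30-fold; limma adjusted p = 0.0348 over all genes tested). Snora61 had 7.13 and 7.11 in Akita hearts, against 6.32, 6.33 and 6.16 in wild type hearts. Its groups were also apart, and the arrays of each group lay close together. The log2 difference was 0.85 (SE 0.11, 1.80-fold; limma adjusted p = 0.0358).

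The other small RNAs of Snhg12 stayed within or near their wild type range. Snora16a, a box H/ACA RNA, had 10.23 and 10.01 in Akita hearts, against 9.96, 10.09 and 10.18 in wild type hearts (log2 difference 0.04, SE 0.13, limma adjusted p = 0.916). Snord99, the box C/D RNA of the locus, had 11.94 and 12.15 in Akita hearts, against 11.79, 11.99 and 11.91 in wild type hearts (log2 difference 0.15, SE 0.12, limma adjusted p = 0.647). Whether the difference of Snora44 or Snora61 exceeded that of Snora16a was not tested. The probe set of Snhg12 itself had 4.63 and 5.11 in Akita hearts, against 5.08, 5.15 and 5.06 in wild type hearts (log2 difference -0.23, SE 0.155, limma adjusted p = 0.566). The host probe set thus lay lower in 1 Akita array and inside the wild type range in the other.

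The calls of Snora44 and Snora61 rested on all 5 arrays. With any 1 array left out neither passed, at adjusted p of 0.0742 to 0.157 for Snora44 and 0.0995 to 0.176 for Snora61, while the differences stayed between 1.08 and 1.31 and between 0.80 and 0.88. Of 9 other alternatives Snora44 lost its call in 4, among them quantile normalization again (adjusted p = 0.0575), and Snora61 in 2, among them centring over all probe sets (adjusted p = 0.0567).

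**Figure D1:**
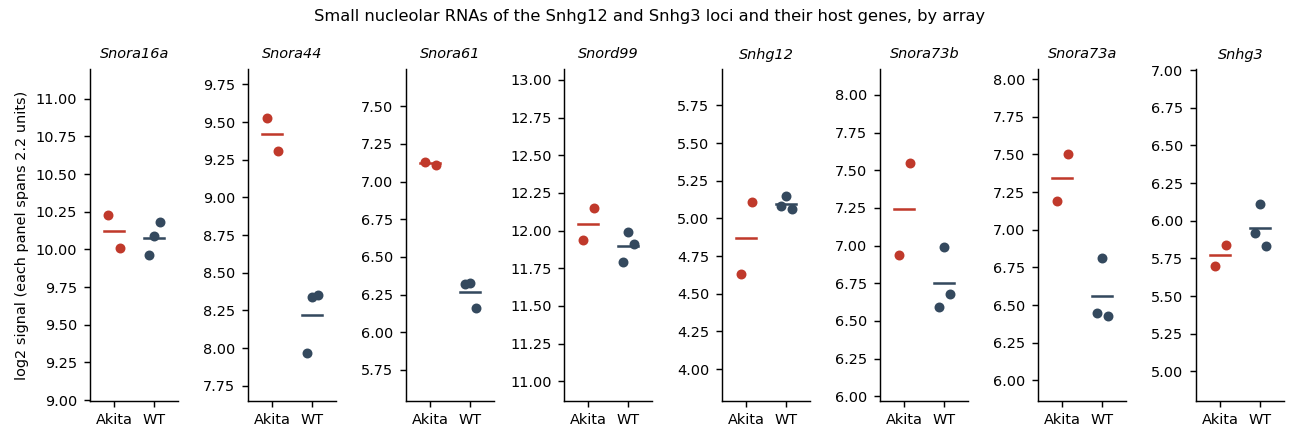
Log2 signal (y axis, 2.2 units in every panel) of the small nucleolar RNAs held by Snhg12 and Snhg3 and of both host genes. Each point is 1 array, with Akita (red, 2 arrays) left of wild type (WT, dark, 3 arrays), and bars are group means. The groups do not overlap for Snora44, Snora61 and Snora73a.

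Snora73a and Snora73b lie next in order of difference, without a call. Relatives of these RNAs in yeast and frog act in the cleavage of precursor ribosomal RNA rather than in its modification. Snora73a had 7.19 and 7.50 in Akita hearts, against 6.45, 6.81 and 6.43 in wild type hearts (log2 difference 0.78, SE 0.16, limma adjusted p = 0.137). Snora73b had 6.94 and 7.55 in Akita hearts, against 6.59, 6.99 and 6.68 in wild type hearts (log2 difference 0.49, SE 0.20, limma adjusted p = 0.356). The groups of Snora73b overlapped, and its difference was 0.19 without Akita replicate 3. The pair are close copies, so signal may be shared between their probe sets. Their host Snhg3 had 5.70 and 5.84 in Akita hearts, against 5.92, 6.11 and 5.83 in wild type hearts (log2 difference -0.18, SE 0.13, limma adjusted p = 0.574).

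The protein-coding genes around both hosts differed by less than Snora44 and Snora61. Trnau1ap and Rcc1, which lie between Snhg12 and Snhg3, differed by -0.14 and 0.01 on the log2 scale. Taf12 on the outer side of Snhg12 differed by -0.21 and Phactr4 on the outer side of Snhg3 by -0.27, and none of these genes passed the test. They were chosen for their position after the values of the small RNAs had been seen.

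**Figure D2:**
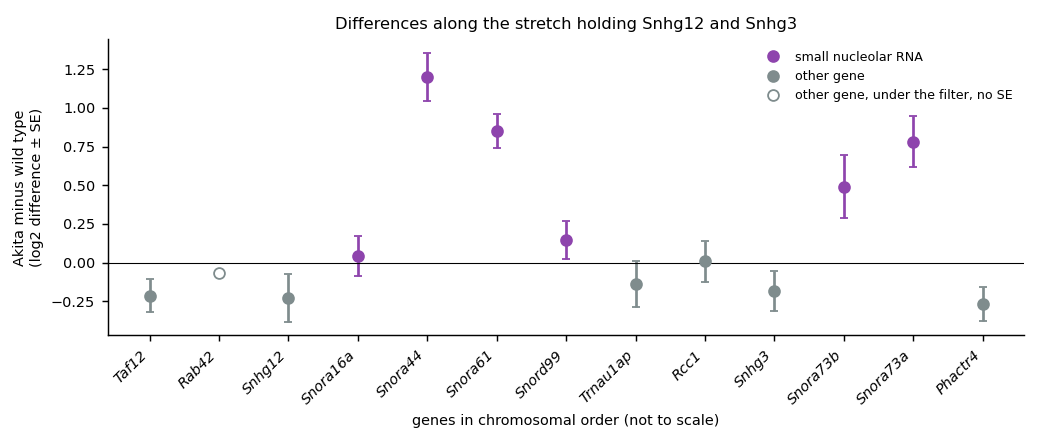
Akita minus wild type log2 difference (y axis, bars show the SE of the limma fit) for 13 neighbouring genes in chromosomal order, not to scale, on the x axis. Small nucleolar RNAs are purple, other genes grey, and the open point is Rab42, which lay under the filter on dim genes. Snora44, Snora61, Snora73a and Snora73b lie at 0.49 to 1.20, Snora16a and Snord99 at 0.04 and 0.15, and the grey points between -0.27 and 0.01.

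The differences of the whole class ran from -0.78 to 1.20 on the log2 scale. Of the 78 members, 72 passed the filter on dim genes, which left out genes with a mean log2 signal under 4.06. The 6 below it were Snora19, Snora20, Snord19, Snord37, Snord85 and Snord91a, which were described but not tested. Of these, Snora20 had 3.19 and 3.89 in Akita hearts, against 4.12, 4.97 and 3.87 in wild type hearts, a difference of -0.78 with overlapping groups. Snord37 differed by -0.57 with both Akita arrays below the wild type range, and both were chosen after their values were seen. By limma 2 of the 72 members passed, where 0.328% of the 15528 genes tested did. Both rose, where 0.213% of all genes tested rose, and no member fell, where 0.116% of all did. At an unadjusted p under 0.05 there were 9 members, against 13.6% of all genes tested. Both Akita arrays lay above the wild type range in 8 of the 72 members, or 11.1%, beside 9.89% of all genes. They lay below it in 9, or 12.5%, beside 19.9% of all genes. Thus the share above was near the background, and in 34 members (47.2%) the difference was under 0, against 56.5% of all genes.

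By class, the median difference over all members was 0.05 for Snora, -0.05 for Snord and -0.14 for Scarna, beside -0.03 over the genes tested. The sign of the Snora median turned with centring over all probe sets (-0.04), and that of the Snord median with cyclic loess (0.03) and with centring over the genes tested (0.04). Members lay within 0.25 log2 units of wild type in 19 of 26 Snora, 34 of 47 Snord and 4 of 5 Scarna genes. Over the members tested that share was 76.4%, near the 75.5% of all genes tested. The arrays of a group differed among themselves. Set against the wild type mean of each gene, the median deviation over all members was -0.10 and 0.04 in Akita replicates 1 and 3, against -0.10, 0.10 and -0.03 in wild type replicates 3, 4 and 5. Akita replicate 1 lay below the wild type range in 30 members and replicate 3 in 14, while replicate 1 lay above it in 15 and replicate 3 in 27. In 7 members replicate 3 lay above the range and replicate 1 below it, and in 1 the reverse. Wild type replicate 4 was the highest wild type array, ties included, in 54 of 78 members. Over all genes tested the median deviation was -0.07 and -0.01 in Akita replicates 1 and 3. These counts by array were not made over all genes, so they are not read as a trait of the members. Centring the arrays moved the counts of members above and below in opposite directions, against 8 and 10 of 78 as deposited. They were 5 and 18 with the median over all probe sets and 16 and 6 with the median over the genes tested. Shares over all genes were not computed under either centring.

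**Figure D3:**
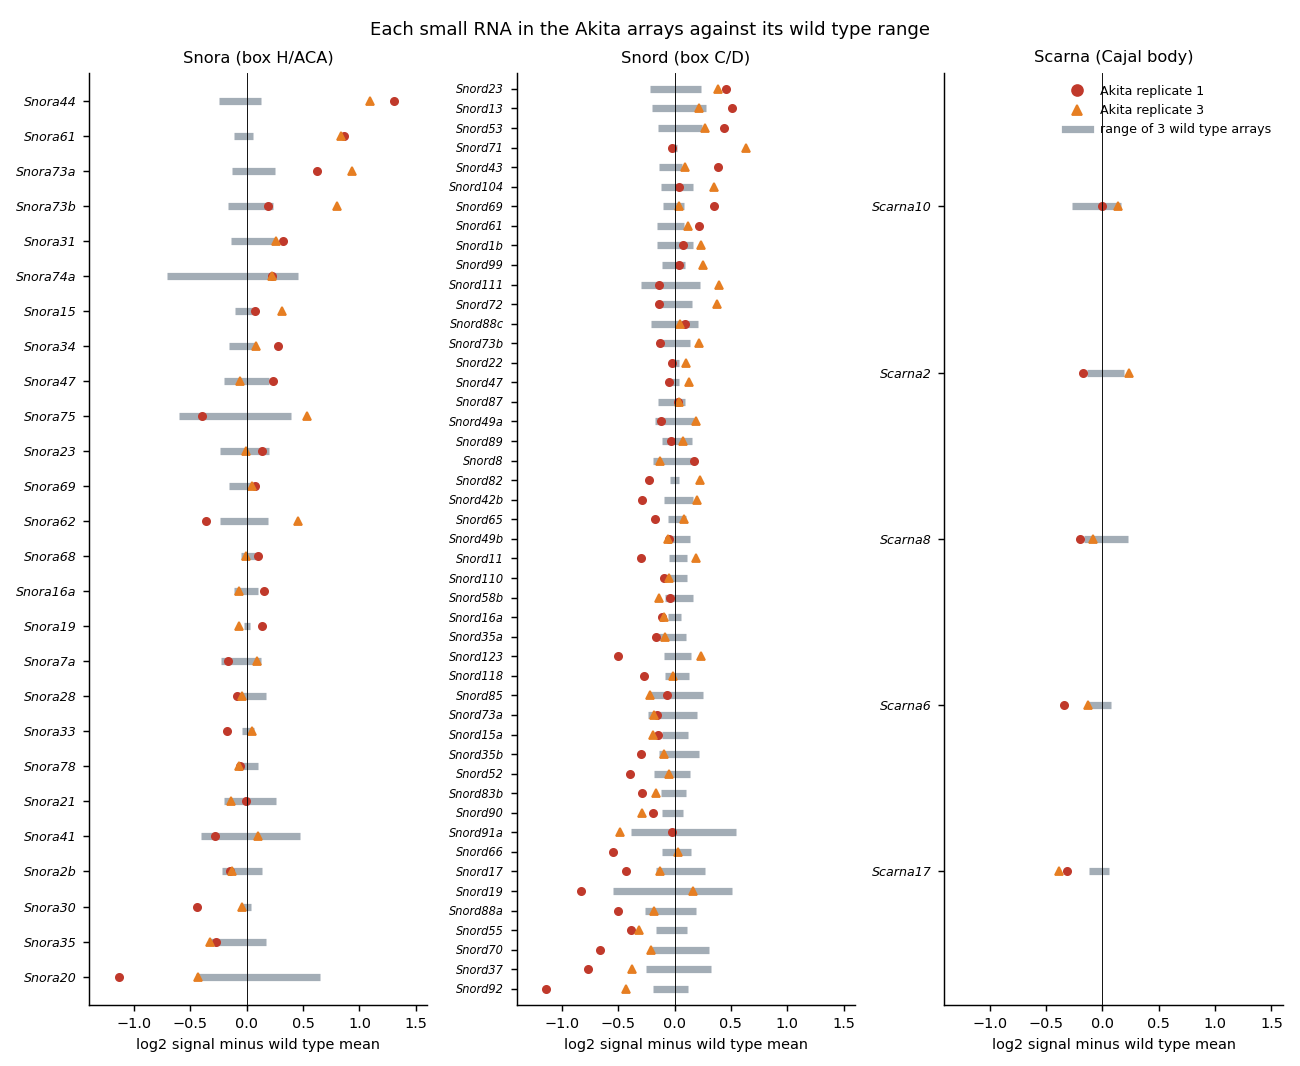
Log2 signal of each member minus its wild type mean (x axis) in Akita replicate 1 (circles) and Akita replicate 3 (triangles). Grey bars span the 3 wild type arrays, and members are sorted by difference within each class. Most symbols lie on or beside their bar, while Snora44 and Snora61 lie well to the right of it.

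Among the remaining box H/ACA RNAs the smallest p belonged to Snora31, held by Tpt1. It had 6.35 and 6.29 in Akita hearts, against 5.89, 6.28 and 5.91 in wild type hearts (log2 difference 0.29, SE 0.15, limma adjusted p = 0.438). The Akita arrays lay just above the highest wild type array. The brightest Snora probe sets were close between the groups. Snora33, held by the ribosomal protein gene Rps12, had 12.17 and 12.39 in Akita hearts, against 12.30, 12.41 and 12.32 in wild type hearts. Snora34, held by Kansl2, had 11.41 and 11.21 in Akita hearts, against 10.97, 11.21 and 11.21 in wild type hearts. Snora21, held by Rpl23, had 10.30 and 10.17 in Akita hearts, against 10.11, 10.57 and 10.25 in wild type hearts. The groups of these 3 RNAs overlapped or touched, and none passed the test. Snora33 differed by -0.06 in both of its probe sets, of which the other was far dimmer.

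Among box C/D RNAs no member passed, with 4 of 43 at an unadjusted p under 0.05. The lowest difference among tested members was that of Snord92, held by Wdr43, with 4.21 and 4.92 in Akita hearts, against 5.16, 5.47 and 5.41 in wild type hearts (log2 difference -0.78, SE 0.21, limma adjusted p = 0.210). Its Akita arrays lay below every wild type array but 0.71 apart from each other, as the difference of -0.43 without Akita replicate 1 and -1.14 without Akita replicate 3 shows. Snord53, held by the same gene, had 5.76 and 5.59 in Akita hearts, against 5.18, 5.22 and 5.57 in wild type hearts (log2 difference 0.35, SE 0.15, limma adjusted p = 0.367). The small RNAs of Wdr43 thus lay on opposite sides of wild type, while Wdr43 itself differed by 0.07.

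Snord23, held by the nucleolar protein gene Nop53, had 9.24 and 9.17 in Akita hearts, against 8.57, 8.76 and 9.02 in wild type hearts (log2 difference 0.42, SE 0.15, limma adjusted p = 0.300). Snord70, held by Nop58, had 6.96 and 7.41 in Akita hearts, against 7.93, 7.51 and 7.42 in wild type hearts (log2 difference -0.44, SE 0.20, limma adjusted p = 0.392). The groups of Snord23 and of Snord70 did not overlap, and in Snord70 the gap was 1 hundredth of a log2 unit.

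RNAs of the processing group gave no call. Snord118, which acts in the maturation of large-subunit ribosomal RNA in frog and human cells, had 5.18 and 5.44 in Akita hearts, against 5.40, 5.58 and 5.37 in wild type hearts (log2 difference -0.14, SE 0.13, limma adjusted p = 0.688). Snord13, which guides acetylation of small-subunit ribosomal RNA in human cells, had 8.36 and 8.07 in Akita hearts, against 7.65, 8.13 and 7.78 in wild type hearts (log2 difference 0.36, SE 0.17, limma adjusted p = 0.410). Snord22, held by Snhg1, had 11.58 and 11.70 in Akita hearts, against 11.57, 11.64 and 11.59 in wild type hearts. All 3 overlapped between the groups. With Snora73a and Snora73b they make up the 5 processing RNAs that had a probe set of their own. Of these 4 lay higher, Snord22 by only 0.04, and 1 lower, where 56.5% of all genes tested lay lower. Snord14a and Snord14e, of the same group, share probe sets with Rps13 and Hspa8. Those probe sets differed by -0.49 and -0.235, neither of them tested.

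Snord35a comes from an intron of Rpl13a, and its cluster is known from studies of rodent cells as needed for cell death under excess fatty acid. It had 9.35 and 9.43 in Akita hearts, against 9.37, 9.61 and 9.55 in wild type hearts (log2 difference -0.12, SE 0.12, limma adjusted p = 0.706). The probe sets of its neighbours also carry the symbol Rpl13a, and the differences were 0.02 for Snord32a, -0.09 for Snord33 and 0.13 for Snord34, none of them tested. Snord47, from the growth-arrest transcript Gas5, had 10.23 and 10.41 in Akita hearts, against 10.26, 10.32 and 10.26 in wild type hearts. The very bright Snord61, held by Rbmx, had 11.28 and 11.19 in Akita hearts, against 10.91, 11.15 and 11.14 in wild type hearts, apart by 0.04 but with a limma adjusted p of 0.593.

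None of the 5 Cajal body RNAs passed, and 1 had an unadjusted p under 0.05. This was Scarna17, with 9.99 and 9.92 in Akita hearts, against 10.19, 10.36 and 10.37 in wild type hearts (log2 difference -0.35, SE 0.11, limma adjusted p = 0.272). Its groups did not overlap in this probe set. In its other, somewhat dimmer probe set they overlapped, with 9.34 and 9.53 in Akita hearts, against 9.46, 9.60 and 9.62 in wild type hearts. That probe set differed by -0.13. Scarna10, held by the condensin gene Ncapd2, had 9.78 and 9.92 in Akita hearts, against 9.51, 9.95 and 9.88 in wild type hearts. Scarna2 had 8.48 and 8.89 in Akita hearts, against 8.51, 8.84 and 8.60 in wild type hearts. Scarna6, held by the autophagy gene Atg16l1, differed by -0.23, and Scarna8, held by the spindle gene Haus6, by -0.14. The arrays of Scarna10 and Scarna2 overlapped between the groups, and the sign of both small differences turned with the processing.

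As levels, the classes covered most of the range of the arrays. Median log2 signals were 7.16 and 7.31 for Snora in Akita replicates 1 and 3, against 6.70, 6.91 and 6.82 in wild type replicates 3, 4 and 5. For Snord they were 8.06 and 8.13 in Akita hearts, against 7.98, 8.42 and 8.15 in wild type hearts. For Scarna they were 8.48 and 8.89 in Akita hearts, against 8.51, 8.84 and 8.60 in wild type hearts. The Snora medians were thus slightly higher in both Akita arrays, although the median of gene by gene differences was 0.05. Of the 78 members 72 passed the filter, as did 165 of 483 microRNA loci and 115 of 1105 olfactory receptor genes, a family mostly silent outside the nose. Brightness also depends on each probe set, so no order between single RNAs was read from it.

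**Figure D4:**
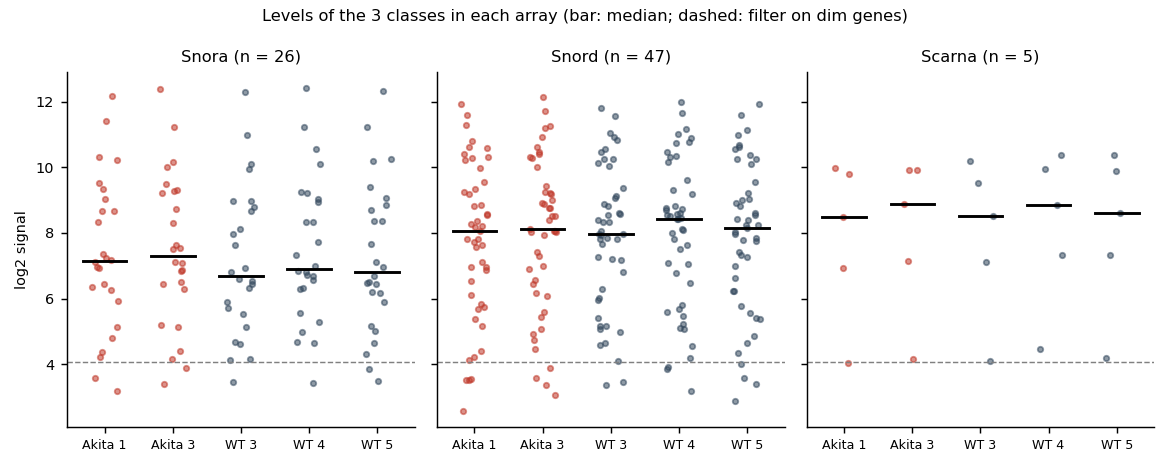
Log2 signal of every member (y axis) in each of the 5 arrays (x axis), by class, with Akita arrays in red and wild type arrays (WT) dark. Black bars are class medians and the dashed line is the filter at 4.06. The medians of Snord lie between 7.98 and 8.42 in all 5 arrays.

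All 78 members were matched to the RefSeq table through their Entrez identifiers. The span of exactly 1 longer gene held 68 of them, of which 52 lay in protein-coding genes and 16 in long non-coding RNAs. Ribosomal protein genes held 18. The table gives no strand, so the strand of a holding gene was not checked. In 53 pairs both the small RNA and the holding gene were tested, over 40 different holding genes, and none of the holding genes passed. The differences had the same sign in 21 of 53 pairs, and their correlation across pairs was -0.26 (Pearson) and -0.23 (Spearman), a description in which pairs share arrays and some share a holding gene. Kansl2 differed by -0.72 (SE 0.13, limma adjusted p = 0.101), while its RNAs Snora34 and Snora2b differed by 0.18 and -0.14. Nop58, which encodes a core protein of box C/D particles, differed by 0.39 (SE 0.12, limma adjusted p = 0.268), while its RNAs Snord11 and Snord70 differed by -0.05 and -0.44. Snora2b and Snord11 were picked once their values were known. Of 11 genes that hold more than 1 member, the spread between members was widest in Snhg12 and Wdr43, at 1.16 and 1.13, and narrowest in Ncl, at 0.07.

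**Figure D5:**
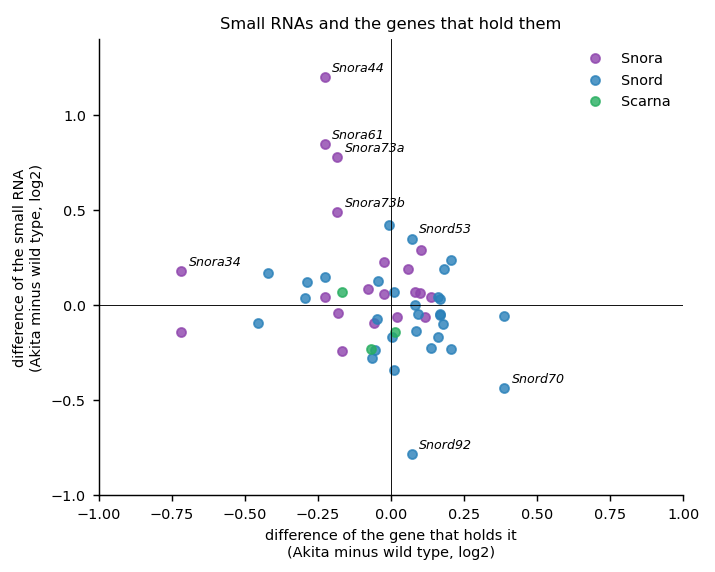
Akita minus wild type log2 difference of the small RNA (y axis) against that of the gene whose span holds it (x axis), for 53 pairs, coloured by class. Snora44, Snora61, Snora73a and Snora73b lie high on the y axis with holding genes slightly below 0.

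No gene measured here of the small RNA machinery passed the test. Of the box H/ACA core proteins, Dkc1, Gar1, Nhp2 and Nop10 differed by -0.11 to 0.07, and by limma 0 of 4 passed, also at an unadjusted p under 0.05. Of the box C/D core proteins, Nop56 and Snu13 differed by -0.05 and 0.09 besides Nop58, and 0 of 3 passed with 1 at an unadjusted p under 0.05. Fibrillarin, the methylating enzyme, was not analysed here. Among 15 assembly and trimming factors 0 passed, with 1 at an unadjusted p under 0.05, the nuclear exosome gene Exosc10 (log2 difference -0.36, limma adjusted p = 0.242). Among 14 factors of ribosomal RNA transcription and the nucleolus 0 passed, with 1 at an unadjusted p under 0.05, the rRNA methyltransferase gene Nop2 (log2 difference -0.51, limma adjusted p = 0.271). The list medians were -0.03, 0.09, 0.01 and -0.07 in this order, beside -0.03 over all genes tested. Of all genes tested 13.6% had an unadjusted p under 0.05 by limma.

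Terc, the telomerase RNA, which ends in a box H/ACA domain, had the lowest value of the 7 Cajal body and telomerase genes as Akita minus wild type. It had 4.32 and 4.23 in Akita hearts, against 4.83, 4.88 and 5.28 in wild type hearts (log2 difference -0.72, SE 0.16, limma adjusted p = 0.143). The groups did not overlap, but the signal was near the filter, and 0 of the 5 genes tested in that list passed. Of 17 non-coding host genes 12 lay lower and 5 higher, with a median of -0.17, 0 past the threshold and 3 at an unadjusted p under 0.05. These were Snhg17 (log2 difference 0.57, limma adjusted p = 0.148), Snhg14 (-0.50, adjusted p = 0.313) and Snhg1 (-0.29, adjusted p = 0.334). Of all genes tested 56.5% lay lower and 13.6% had an unadjusted p under 0.05 by limma, with a median difference of -0.03.

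A further 46 probe sets name a small RNA together with another gene and so lay outside the class as defined. The largest difference was in 16 probe sets of identical values that carry Snord116l1, Snord116l2 and Gm26504, with 8.38 and 7.74 in Akita hearts, against 4.64, 5.39 and 5.20 in wild type hearts (log2 difference 2.98, not tested). The probe set of Scarna13 and Mir3069 had 7.94 and 7.62 in Akita hearts, against 6.80, 7.24 and 6.86 in wild type hearts (log2 difference 0.81, not tested). Other probe sets of this kind lay lower. The lowest difference was that of Snord4a and Tlcd1, with 2.64 and 2.93 in Akita hearts, against 3.68, 3.74 and 3.27 in wild type hearts (log2 difference -0.78, not tested). These signals are dim. The groups were apart in each of the named cases, and the values cannot be assigned to single RNAs. All were picked once their values were known.

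The arrays resembled each other, with correlations across probe sets of 0.968 to 0.988, and median log2 signals of 4.71 and 4.60 in Akita hearts, against 4.53, 4.56 and 4.62 in wild type hearts. All 7 heart muscle markers, Myh6 and Tnnt2 among them, had log2 signals of 8.32 to 13.26. Summed linear signals of 4 atrial markers were 5126 and 14226 in Akita replicates 1 and 3, against 4310 to 4659 in wild type hearts. Most of each sum came from Nppa, which lay higher in both Akita arrays (12.21 and 13.39, against 11.79 to 11.98). The Akita arrays lay on opposite sides of wild type in Myl7 (6.55 and 10.36, against 7.83 to 8.10) and Sln (6.71 and 10.85, against 7.74 to 8.13). In the remaining atrial marker, Myl4, replicate 1 lay inside the wild type range and replicate 3 above it (7.57 and 8.37, against 7.48 to 7.97). The median deviation of the 4 from the wild type mean was -0.70 and 1.94 in Akita replicates 1 and 3. The summed linear signals of 4 epicardial markers were 228 and 389 in Akita hearts, against 214 to 219 in wild type hearts. Upk3b and Msln lay higher in both Akita arrays. Wt1 lay inside the wild type range in both (6.23 and 6.27, against 6.10 to 6.37). Upk1b lay inside it in replicate 1 and above it in replicate 3 (5.57 and 6.45, against 5.34 to 5.84). The summed linear signals of 5 white adipocyte markers were 156 and 199, against 123 to 131. Of these, Plin1, Cidec and Retn lay higher in both Akita arrays. Adipoq (3.93 and 4.11, against 3.58 to 4.05) and Lep (4.12 and 3.99, against 3.39 to 4.21) overlapped wild type. Adipoq and Lep lay under the filter on dim genes and were not tested, and none of the other markers passed the test. Their part in the differences of the small RNAs was not tested.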

How the data were processed

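Total RNA from fresh heart tissue was hybridised to 5 arrays, and the deposited values are log2 signals for 41345 probe sets, made by the authors with Affymetrix Expression Console, per the submitters' processing notes. The sources used here do not state its version, summarisation or normalization, and the log base was read from the range of 1.27 to 13.66. Normalization between arrays would hide a shift shared by most genes, and leftover background makes differences of dim genes too small.

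The platform annotation gave 23521 probe sets a single symbol, and each of 22180 genes was represented by its probe set of highest mean. The filter removed genes whose mean signal was below the 30th percentile. Akita minus wild type was tested over the other 15528 genes with limma 3.58.1 in R 4.3.3 (lmFit, eBayes, two-sided, Benjamini-Hochberg adjustment, threshold 0.05), with 3 residual and 4.38 prior degrees of freedom. On simulated data with 200 of 15528 genes changed, 97.1% of log2 changes of 1 and 100% of changes of 2 were recovered. There were 9 false among 206 calls, and 0 calls without changes. These shares hold for the simulated noise and are not read as power in the real arrays. In the real arrays Snora44, at a log2 difference of 1.2, had a limma adjusted p of 0.0348. No batch is named in the labels.

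Members and gene lists were chosen with earlier results of these data known. Members named in the text were those past the threshold, the 5 of smallest p and 3 of highest mean in each class, those of the fixed lists, and others where said, and 1 member that the rule names is not reported here. Snora16a was added after its values were seen, as the remaining small RNA of Snhg12, as were Trnau1ap, Rcc1, Taf12 and Phactr4. Holding genes were found by span in a RefSeq gene table of GRCm38.p6, and since the array's own build is not stated, member coordinates are not given. Summaries used pandas 2.3.3 under Python 3.11.15, and plots used matplotlib 3.10.9.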

Additional observations from a re-analysis of the deposited data

How the results depend on the processing

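The count of 2 members called became 1 with quantile normalization again, with cyclic loess between arrays, and with arrays centred on their median over all probe sets or, added after seeing the data, over the genes tested, each time in members that rose. It was 0 with array weights and with any 1 array left out. Calls over all genes moved too, from 51 to 41, 29, 84 and 30 in the first 4 settings as listed, to 28 with array weights and to 9, 17, 26, 40 and 11 without wild type replicates 3, 4 and 5 and Akita replicates 1 and 3. The 2 calls stayed without a filter (86 genes), with a stricter filter at percentile 50 (48), with averaged probe sets (53) and with an intensity trend and robust prior (197), and 0 members fell in any of these fits. Snora44 had adjusted p of 0.0575, 0.0601, 0.0645 and 0.0731 with quantile normalization, loess, array weights and centring over the genes tested, and Snora61 had 0.0567 and 0.0686 with centring over all probe sets and array weights. Members above and below the wild type range numbered 5 and 18 with centring over all probe sets. They numbered 16 and 6 with centring over the genes tested, and 8 to 27 and 10 to 30 with an array left out. The 27 came without Akita replicate 1 and the 30 without Akita replicate 3. In these fits only 1 Akita array had to lie outside the range, and leaving out a wild type array can narrow the range. Such counts can thus rise by construction. Shares over all genes were not computed with an array left out, so no dependence of the members is read from them. Centring over all probe sets moved the median of all genes tested to -0.12. Centring over the genes tested moved it to 0.06, and the Snord median to 0.0425. The Snora median was -0.0383 with centring over all probe sets, 0.1408 over the genes tested and 0.1302 with loess, and the Snord median was 0.0305 with loess. With an array left out the medians ran from -0.035 to 0.0875 for Snora, -0.1267 to 0.04 for Snord and -0.22 to -0.025 for Scarna.

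Small differences, none of them called, changed sign. Snord22 was -0.0157 with quantile normalization again. Centring over all probe sets gave -0.015 for Scarna10, -0.05 for Scarna2, -0.045 for Snord22 and -0.045 for Snord47, and centring over the genes tested gave 0.0192 for Snora21 and 0.0308 for Snora33. With an array left out the differences ran from -0.065 to 0.155 for Scarna10, -0.17 to 0.24 for Scarna2, -0.175 to 0.055 for Snora21, -0.1733 to 0.0467 for Snora33, -0.02 to 0.1 for Snord22 and -0.05 to 0.13 for Snord47. The cause was not tested. Where 1 Akita array remained, its spread was taken to equal that of wild type. No paired analysis was possible because the groups share only replicate number 3.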
